A study of Danio rerio with 4 samples.

Results

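The 10 transcription factor genes described here specify arterial, venous and lymphatic endothelium. They were measured in cells sorted by reporters as coronary endothelium of the zebrafish heart, and RNA of other cell types was present too, as given below. They were chosen by symbol in the deposited gene table, where each matched 1 row, and they are 10 of its 20306 genes. They are the COUP-TF genes nr2f1a, nr2f1b and nr2f2, the SoxF genes sox7, sox17 and sox18, the lymphatic factor gene prox1a, the forkhead genes foxc1a and foxc1b, and mafba. Bulk RNA sequencing compared a Regenerating population (2 libraries) with a Non-Regenerating population (2 libraries). All cells came from wild-type fish whose ventricles had been injured by freezing and were taken 7 days later. All were sorted for a red reporter of flt1, a vascular endothelial growth factor receptor gene, driven by a promoter fragment that in zebrafish embryos favours arterial endothelium. One sorted population carried a yellow reporter of the chemokine receptor gene cxcr4a and the other lacked it. The labels do not state which of these is which heading. Regenerating was taken as cxcr4a:YFP+ and Non-Regenerating as cxcr4a:YFP- from knowledge of the reporter lines, and the text uses the headings. The labels give neither the age of the fish nor the origin of the replicates. The p-values therefore cover only how far these libraries differ, and that spread may be technical rather than between animals.

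Endothelial cells take on arterial, venous or lymphatic identity through a small set of transcription factors. In mice, nr2f2 (COUP-TFII) is required for vein identity and restrains Notch signalling, the pathway that maintains arteries. SoxF proteins act on the arterial side in mice and in the separation of arteries from veins in zebrafish embryos. Prox1 is the defining factor of lymphatic endothelium, which buds from veins, and mafba acts in zebrafish lymphatic precursors. Foxc proteins are needed for vessel formation and in mice induce the Notch ligand gene Dll4. Several of these factors also work outside endothelium: nr2f1a in zebrafish atrial muscle, prox1a in heart muscle and Foxc1 in mouse mesenchyme.

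Values are gene counts that the authors scaled per library and rounded to whole numbers, here called normalized counts. They summed to between 10481747 and 10761712 per library, with an estimated 9741978 to 11583307 reads behind them. The cxcr4a gene had 2285 and 2242 normalized counts in Regenerating, against 585 and 590 in Non-Regenerating. The flt1 gene had 5496 and 5925 in Regenerating, against 6595 and 6649 in Non-Regenerating. Endothelial RNA was visible in pan-endothelial markers, which do not set coronary cells apart from other endothelium. The endothelial cadherin gene cdh5 had 11674 and 11643 in Regenerating, against 11920 and 12629 in Non-Regenerating. The receptor gene kdrl had 10626 and 11392 in Regenerating, against 11230 and 12236 in Non-Regenerating.

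The values of nr2f2, nr2f1a, foxc1a, foxc1b and mafba were lower in both Regenerating libraries than in either Non-Regenerating one, those of sox17 were higher, and those of sox7, sox18, prox1a and nr2f1b overlapped. None of the 10 members had an adjusted p under 0.05 in limma, a linear model fitted on log2(value + 1) over all genes that passed a filter on low values (10 or more normalized counts in 2 or more libraries). At that threshold 0.00591% of the 16928 genes tested were called. Without adjustment, 5 of the 10 members had a p under 0.05, against 12.8% of all genes tested. Of these, nr2f2, nr2f1a, foxc1a and mafba were lower in Regenerating (background 5.19%) and sox17 was higher (background 7.62%). In 6 members every Regenerating value lay on one side of every Non-Regenerating value, 5 of them lower and 1 higher, against 43.2% of all genes tested, 21.5% lower and 21.8% higher. The members and the lists used below were chosen with earlier results of these data known. Counts set beside these shares are therefore description and not a test. The median log2 fold change was -0.44 over the members and 0.00 over all genes tested. In bulk samples, fewer cells of a type and less RNA per cell cannot be told apart.

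**Figure D1:**
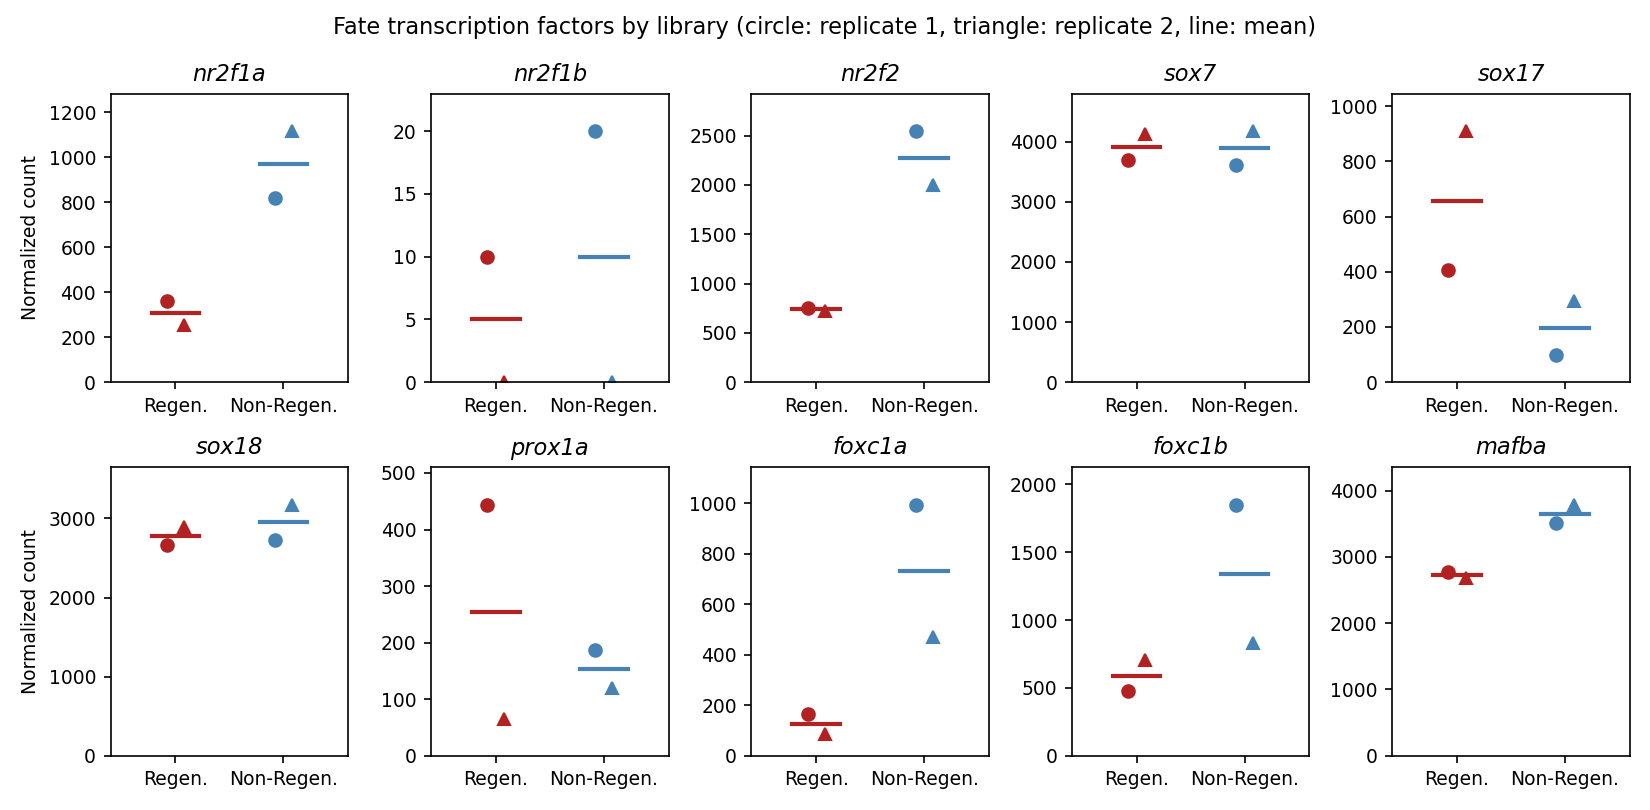
Normalized counts (y axis, linear from 0, separate scale per gene) of the 10 genes in the 2 Regenerating (red, left) and 2 Non-Regenerating (blue, right) libraries, with circles for replicate 1, triangles for replicate 2 and lines for means. The values of nr2f2, nr2f1a, foxc1a, foxc1b and mafba are lower in both Regenerating libraries, those of sox17 are higher, and the other 4 genes overlap.

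Among the COUP-TF genes, which encode orphan nuclear receptors, nr2f2 was 3.06-fold and nr2f1a 3.15-fold lower in Regenerating. The vein factor gene nr2f2 (ENSDARG00000040926, chromosome 18, 23868650 to 24023013, minus strand, danRer11) had 756 and 719 normalized counts in Regenerating, against 2545 and 2003 in Non-Regenerating. The groups did not overlap, and the Regenerating libraries lay closer to each other than the Non-Regenerating ones. The mean was 737.5 ± 26.2 in Regenerating, against 2274 ± 383 in Non-Regenerating (SD over 2 libraries each), with a log2 fold change of -1.61 (SE 0.172, 95% interval -2.05 to -1.17). Its limma unadjusted p was 0.000215, rank 28 of 16928 genes, and its adjusted p was 0.13. An antisense gene, BX569787.1, lies within the span of nr2f2 on the other strand and had 17 and 12 in Regenerating, against 87 and 79 in Non-Regenerating. Whether counting used strand is not given in the sources used here, so reads of the 2 genes cannot be told apart.

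The paralog nr2f1a (ENSDARG00000052695, chromosome 5, 49744713 to 49751549, plus strand), known for atrial identity and vessel growth in zebrafish, had 361 and 254 in Regenerating, against 821 and 1116 in Non-Regenerating. Both Regenerating values lay below both Non-Regenerating values. The log2 fold change was -1.66 (SE 0.273, 95% interval -2.35 to -0.96, limma unadjusted p = 0.00164, adjusted p = 0.164). The second copy, nr2f1b (ENSDARG00000017168, chromosome 10), linked to venous and angiogenic growth in zebrafish embryos, had 10 and 0 in Regenerating, against 20 and 0 in Non-Regenerating. It passed the filter through replicate 1 of each group, the other library of each held no count, and a count of 0 allows up to 2.98 in that Regenerating library and 3.25 in that Non-Regenerating library (3 reads each, counting error only). The libraries of each group differed beyond counting error, with 95% Poisson intervals of 5.05 to 18.1 and 0 to 3.66 in Regenerating, against 12.1 to 30.7 and 0 to 4 in Non-Regenerating. The 95% interval of the log2 fold change ran from -5.49 to 4.55, so no direction can be given for nr2f1b.

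The SoxF genes encode high-mobility-group proteins of endothelium, and only sox17 among them had values that separated the groups. The gene sox7 (ENSDARG00000030125, chromosome 20, 19066596 to 19080593, plus strand), which in zebrafish embryos helps keep arteries and veins apart, had 3700 and 4119 in Regenerating, against 3615 and 4172 in Non-Regenerating. The groups overlapped, with a log2 fold change of 0.0075 (95% interval -0.32 to 0.33). The gene sox18 (ENSDARG00000058598, chromosome 23, 8797143 to 8799880, plus strand), its partner in that role, had 2667 and 2897 in Regenerating, against 2727 and 3175 in Non-Regenerating. Here too the groups overlapped, and the log2 fold change was -0.08 (95% interval -0.42 to 0.25). That of sox18 was 0.069 when libraries were centred on the pan-endothelial genes, a scaling that moved the median of all genes to 0.15.

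The gene sox17 (ENSDARG00000101717, chromosome 7, 58772209 to 58776400, minus strand), a factor of arterial identity in mice, had 406 and 910 in Regenerating, against 98 and 296 in Non-Regenerating. Both Regenerating values lay above both Non-Regenerating values, but replicate 1 was the lower library in each group, by 2.24 times in Regenerating and 3.02 times in Non-Regenerating. The mean was 658 ± 356 in Regenerating, against 197 ± 140 in Non-Regenerating (SD over 2 libraries each). The fitted log2 fold change was 1.83, or 3.55-fold higher (SE 0.65, 95% interval 0.17 to 3.49). Its limma unadjusted p was 0.0367 and its adjusted p 0.356. Leaving out single libraries moved the log2 fold change to 1.04 when Non-Regenerating replicate 1 was dropped (unadjusted p = 0.16) and to 1.25 when Regenerating replicate 2 was (unadjusted p = 0.209). It was 2.62 when Non-Regenerating replicate 2 was dropped.

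The forkhead genes foxc1a and foxc1b, duplicate copies of the single FOXC1 gene of mammals, were both lower in Regenerating and the first more so. The gene foxc1a (ENSDARG00000091481, chromosome 2, 686873 to 689047, minus strand) had 166 and 86 in Regenerating, against 995 and 470 in Non-Regenerating. The groups did not overlap, although replicate 1 was the higher library within each group, by 1.93 times in Regenerating and 2.12 times in Non-Regenerating. The log2 fold change of -2.51 (SE 0.497, 95% interval -3.78 to -1.23) was the most negative of the 10 members, with a limma unadjusted p of 0.00379 and an adjusted p of 0.189. The gene foxc1b (ENSDARG00000055398, chromosome 20, 26702377 to 26704331, plus strand) had 475 and 707 in Regenerating, against 1851 and 834 in Non-Regenerating. These values did not overlap either, but 707 and 834 lay close together. Its log2 fold change was -1.10 (SE 0.43, limma unadjusted p = 0.05, adjusted p = 0.39), with a 95% interval from -2.20 that just reached 0. How reads that match both copies were counted is not given in the sources used here.

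The lymphatic factor gene prox1a showed no difference beyond its spread, and mafba a small one. The gene prox1a (ENSDARG00000055158, chromosome 17, 32822588 to 32865788, minus strand) had 444 and 64 in Regenerating, against 187 and 120 in Non-Regenerating. The Regenerating libraries enclosed both Non-Regenerating values and differed from each other by 6.94 times, beyond counting error (95% Poisson intervals 405 to 485 and 49 to 81.2). Its log2 fold change was 0.17 (95% interval -2.21 to 2.55), -1.21 without Regenerating replicate 1, 1.56 without Regenerating replicate 2, and between these values when either Non-Regenerating library was dropped. The gene mafba (ENSDARG00000017121, chromosome 23, 3405665 to 3409140, minus strand), a leucine zipper factor gene, had 2777 and 2680 in Regenerating, against 3505 and 3789 in Non-Regenerating. The groups did not overlap and the replicates lay within 1.04 and 1.08 times of each other. Its log2 fold change was -0.42 (SE 0.11, 95% interval -0.70 to -0.14, limma unadjusted p = 0.0121, adjusted p = 0.243). The log2 fold change of mafba was -0.27 (limma unadjusted p = 0.0825) when libraries were centred on the pan-endothelial genes. These include vwf, itself at a log2 fold change of -1.19, and the centring moved the median of all genes to 0.15.

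**Figure D2:**
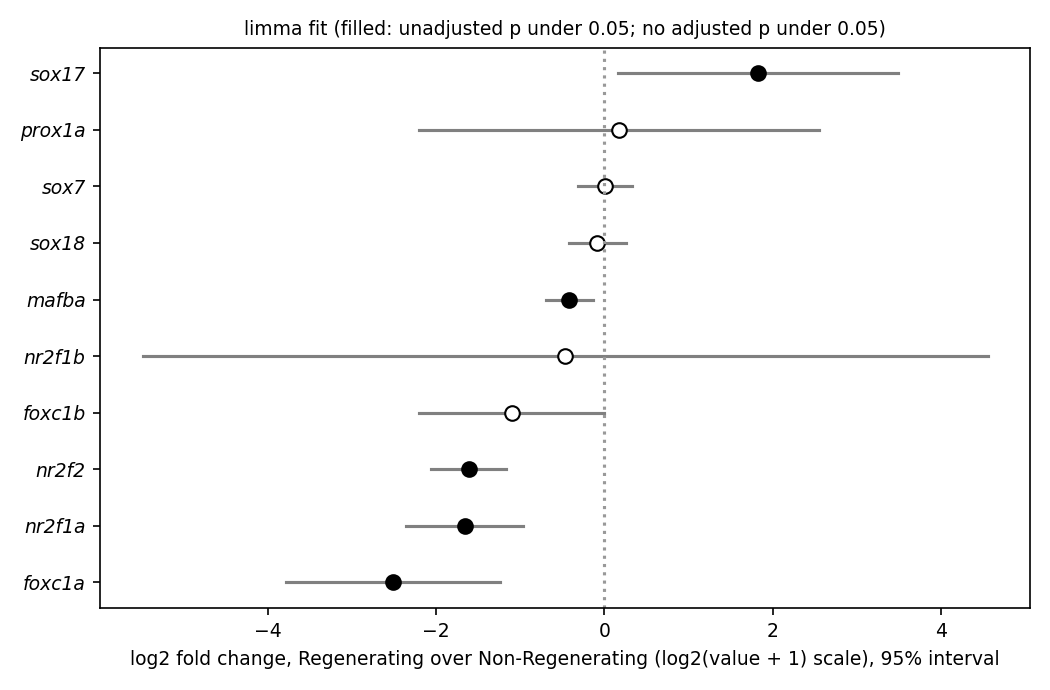
Log2 fold change of Regenerating over Non-Regenerating (x axis, log2(value + 1) scale) for the 10 genes, ordered from highest to lowest, with 95% limma intervals as lines and filled points for an unadjusted p under 0.05. The points run from 1.83 for sox17 to -2.51 for foxc1a, and the intervals of nr2f1b and prox1a are the widest.

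Ratios between members of a family within a library do not depend on the scaling between libraries. The log2 ratio of sox17 to sox18 was -2.71 and -1.67 in Regenerating, against -4.78 and -3.42 in Non-Regenerating, a difference of 1.91. That of sox7 to sox17 was 3.18 and 2.18 in Regenerating, against 5.19 and 3.81 in Non-Regenerating, a difference of -1.82. Relative to either of the other SoxF genes, sox17 was thus higher in both Regenerating libraries. Leaving out Non-Regenerating replicate 1 gave differences of 1.23 for sox17 to sox18 and -1.13 for sox7 to sox17, and leaving out Non-Regenerating replicate 2 gave 2.59 and -2.51. In contrast the log2 ratio of sox7 to sox18 was 0.47 and 0.51 in Regenerating, against 0.41 and 0.39 in Non-Regenerating. The log2 ratio of foxc1a to foxc1b was -1.51 and -3.02 in Regenerating, against -0.89 and -0.83 in Non-Regenerating, a difference of -1.41 that was -0.65 without Regenerating replicate 2. The log2 ratio of nr2f1a to nr2f2 overlapped between the groups, at -1.06 and -1.50 in Regenerating, against -1.63 and -0.84 in Non-Regenerating. Across the 7 ratios computed, an exact two-sided permutation test with 2 against 2 libraries cannot go below p = 0.333, which the 4 ratios that did not overlap reached.

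**Figure D3:**
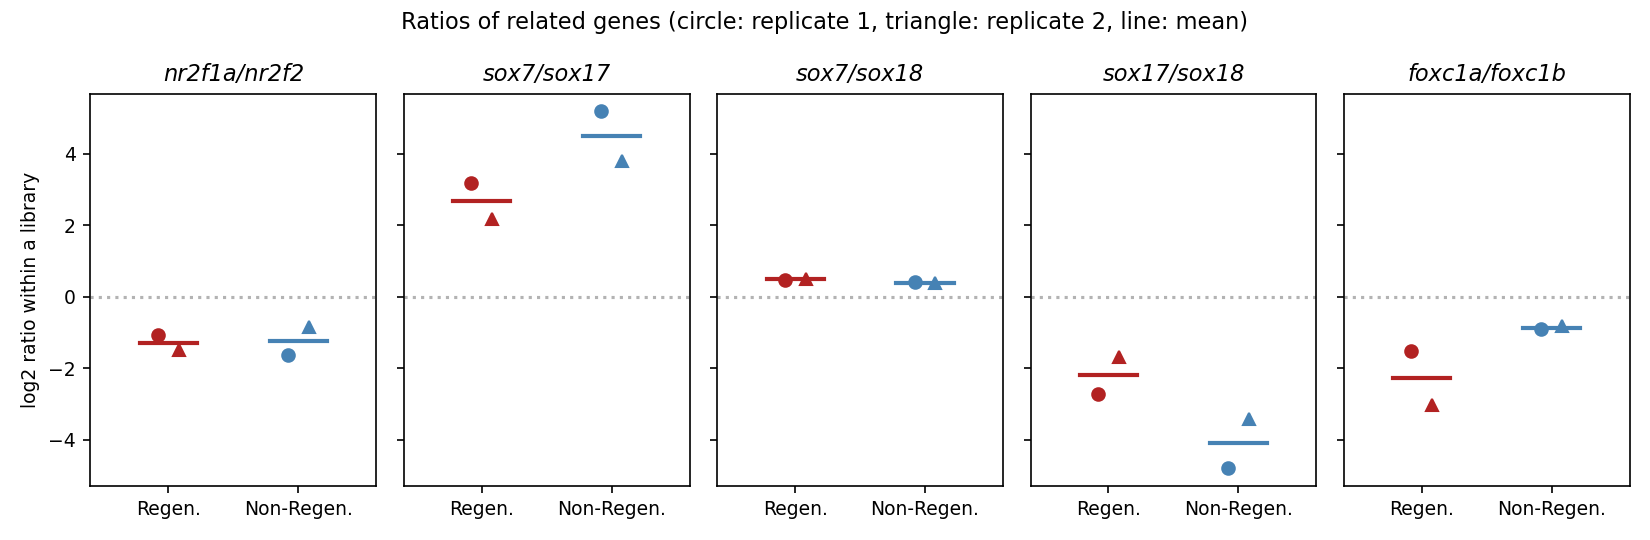
Log2 ratios of related genes within each library (y axis) in Regenerating (red, left) and Non-Regenerating (blue, right), with circles for replicate 1, triangles for replicate 2 and lines for means. The ratios with sox17 and of foxc1a to foxc1b do not overlap between the groups, but their replicates lie far apart within a group. That of sox7 to sox18 does not overlap either, with means 0.09 apart, and that of nr2f1a to nr2f2 overlaps.

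Relatives of the members in the same gene families gave mixed values. The COUP-TF relatives nr2f6a and nr2f6b both had an unadjusted p above 0.05, and nr2f5 did not pass the filter. The SoxF relative sox32, an endoderm factor gene in zebrafish embryos, had 32 and 15 in Regenerating, against 2 and 7 in Non-Regenerating (limma unadjusted p = 0.0455). Of 8 tested Sox genes outside SoxF, 3 were higher and 1 was lower in Regenerating at an unadjusted p under 0.05 (background 7.62% and 5.19%). The gene sox4a, of the SoxC group, had 2486 and 2385 in Regenerating, against 943 and 1218 in Non-Regenerating. The SoxD genes sox13 (4743 and 4992 in Regenerating, against 2295 and 2800 in Non-Regenerating) and sox5 (700 and 953 in Regenerating, against 492 and 351 in Non-Regenerating) were the others that were higher. The SoxC gene sox11a went the other way, with 206 and 229 in Regenerating, against 727 and 396 in Non-Regenerating. None of the tested relatives had an adjusted p under 0.05 in limma. The Prox relative prox3 and the 5 tested Maf relatives all had an unadjusted p above 0.05.

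In the list of vein markers, 10 of 11 tested genes had a log2 fold change below 0, as nr2f2 did. At an unadjusted limma p under 0.05, 6 of the 11 were lower in Regenerating and 1 was higher, and the list's median log2 fold change was -1.38. Of the 6, lyve1a, lyve1b, flt4, nrp2b and mrc1a are also in the lymphatic lists described below, and only ephb4b is not. The direction was not particular to vein markers, as the endocardial list described below had a median of -1.90. Over all genes tested, 5.19% were lower and 7.62% higher at that threshold, but the list was chosen with earlier results of these data known. The hyaluronan receptor gene lyve1a had 173 and 75 in Regenerating, against 638 and 808 in Non-Regenerating. The ephrin receptor gene ephb4b had 3562 and 3592 in Regenerating, against 4863 and 5023 in Non-Regenerating, while its copy ephb4a lay closer together, with 4274 and 4300 in Regenerating, against 4356 and 4964 in Non-Regenerating (limma unadjusted p = 0.336). The exception was nrp2a, a co-receptor gene for Vegfc, with 682 and 896 in Regenerating, against 217 and 180 in Non-Regenerating. Its paralog nrp2b, picked with its values known, had 272 and 221 in Regenerating, against 828 and 492 in Non-Regenerating, so that the copies lay in opposite directions.

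Genes of the lymphatic growth factor pathway divided evenly, with 4 higher and 4 lower of 14 tested at an unadjusted p under 0.05 and a median of 0.03. Of these, nrp2a, nrp2b, lyve1a, lyve1b and flt4 are in the vein list as well. The shares of all genes tested at that threshold were 7.62% higher and 5.19% lower. The ligand gene vegfc had 573 and 797 in Regenerating, against 320 and 209 in Non-Regenerating. Its receptor gene flt4 had 385 and 103 in Regenerating, against 668 and 592 in Non-Regenerating. The protease gene adamts3, which activates Vegfc in mammals and was picked with its values known, had 138 and 280 in Regenerating, against 67 and 52 in Non-Regenerating. Arterial and Notch genes had a median of 0.01, with 5 of 21 tested higher and 1 lower at an unadjusted p under 0.05, and cxcr4a, the gene of the sorting reporter, is one of the 5. The connexin gene gja5a had 483 and 550 in Regenerating, against 18 and 29 in Non-Regenerating, and the netrin receptor gene unc5b 4 and 6 in Regenerating, against 48 and 50 in Non-Regenerating. The Notch ligand gene dll4, a known Sox and Foxc target in mice that was picked with its values known, had 5615 and 6344 in Regenerating, against 5608 and 6234 in Non-Regenerating. The Notch target gene hey1, picked in the same way, had 469 and 570 in Regenerating, against 144 and 292 in Non-Regenerating.

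**Figure D4:**
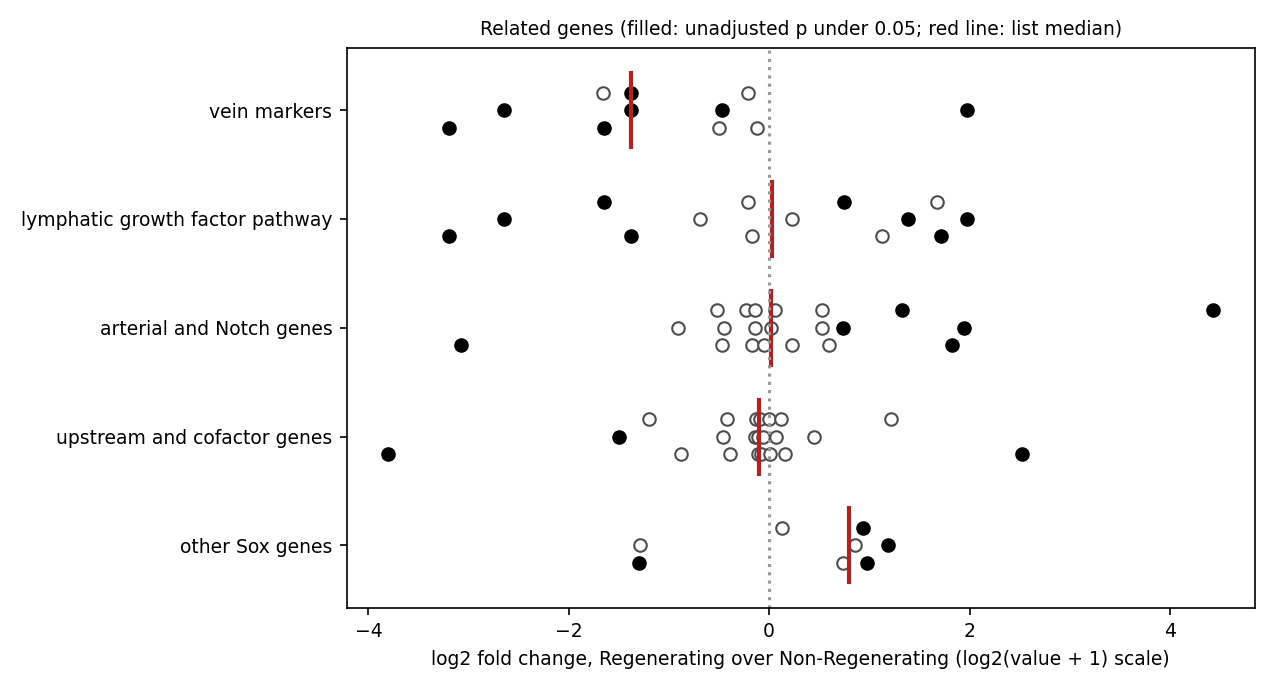
Log2 fold changes of Regenerating over Non-Regenerating (x axis, log2(value + 1) scale) of the tested genes in 5 related lists (rows), with filled points for an unadjusted p under 0.05 and red lines for list medians; vertical offsets within a row only separate the points. Most vein markers lie below 0 with a median of -1.38, whereas the lymphatic growth factor and arterial lists have medians of 0.03 and 0.01.

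Markers of other cells moved with some members. The endocardial list holds genes of the inner lining of the heart. It had 10 of 14 tested genes lower and 1 higher in Regenerating at an unadjusted p under 0.05 (background 5.19% and 7.62%). It summed to 16120 to 16449 in Regenerating, against 22819 to 25131 in Non-Regenerating, and no gene of it was at 0 in either group. The list's median log2 fold change was -1.90, while its 2 most abundant genes, spock3 and klf2a, had smaller ones of -0.29 and -0.13. The epicardial and fibroblast list had 3 of 19 higher and 7 lower, and summed to 43129 to 45651 in Regenerating, against 50069 to 56113 in Non-Regenerating, with none at 0. The genes of that list were mixed, with 9 above and 10 below 0 and a median log2 fold change of -0.05. Its 2 most abundant genes, col1a1b and fn1b, had log2 fold changes of -0.28 and 0.83. The pan-endothelial list also summed lower, to 102170 and 110742 in Regenerating, against 117509 and 123366 in Non-Regenerating. Much of that gap lay in its gene vwf, with 4126 and 5988 in Regenerating, against 13350 and 9620 in Non-Regenerating. Of its 20 tested genes, 4 lay above 0 and 16 below, with a median log2 fold change of -0.09, and 18 had an unadjusted p above 0.05. The values of nr2f2, nr2f1a, foxc1a and foxc1b were lower as well, and the part of these lists in them was not tested. The 4 lymphatic endothelial markers found other than the members (lyve1b, flt4, mrc1a and stab2) summed to 762 to 1021 in Regenerating, against 1467 to 1583 in Non-Regenerating, and lyve1b was near 0 in Regenerating, at 8 and 1. All 4 are also counted in the vein list, so they are not a result separate from it.

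The cardiomyocyte list had 17 of 20 tested genes higher in Regenerating and none lower at an unadjusted p under 0.05 (background 7.62% and 5.19%). It summed to 69842 and 28044 in Regenerating, against 13788 and 8984 in Non-Regenerating, with no gene at 0 in a group. Its 2 most abundant genes, myh7l and tpm4a, had log2 fold changes of 2.98 and 0.15. Regenerating replicate 1, the library with 444 normalized counts of prox1a, also had the highest sum of this list, and the atrial myosin gene myh6 had 2203 and 28 in Regenerating, against 105 and 33 in Non-Regenerating. The part of heart muscle RNA in the prox1a values was not tested. The atrial list summed to 5245 and 1185 in Regenerating, against 492 and 114 in Non-Regenerating, with 1 of 4 tested genes, nppa, higher at an unadjusted p under 0.05, and myh6 overlapped between the groups. The macrophage list summed to 15205 to 16691 in Regenerating, against 11854 to 15040 in Non-Regenerating, with 5 of 21 tested genes higher and none lower. Of these tested genes, 14 lay above 0 and 7 below, and the latter include mpeg1.2 and the Maf relative mafbb. The part of macrophage RNA in the mafba values was not tested. The 2 most abundant genes of the list were lgmn, a lysosomal protease gene, and lcp1, a leukocyte actin-binding gene, and no gene of it was at 0 in a group. The mural list summed to 14007 to 17931 in Regenerating, against 7285 to 11718 in Non-Regenerating. At an unadjusted p under 0.05, 3 of its 13 tested genes were higher and none lower. Of the 13, 8 lay above 0 and 5 below, with a median log2 fold change of 0.25. Its 2 most abundant genes, myh11a and rgs5a, had log2 fold changes of 1.11 and 0.75, and both are among the 3 that were higher. The other 10 tested genes had an unadjusted p above 0.05.

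**Figure D5:**
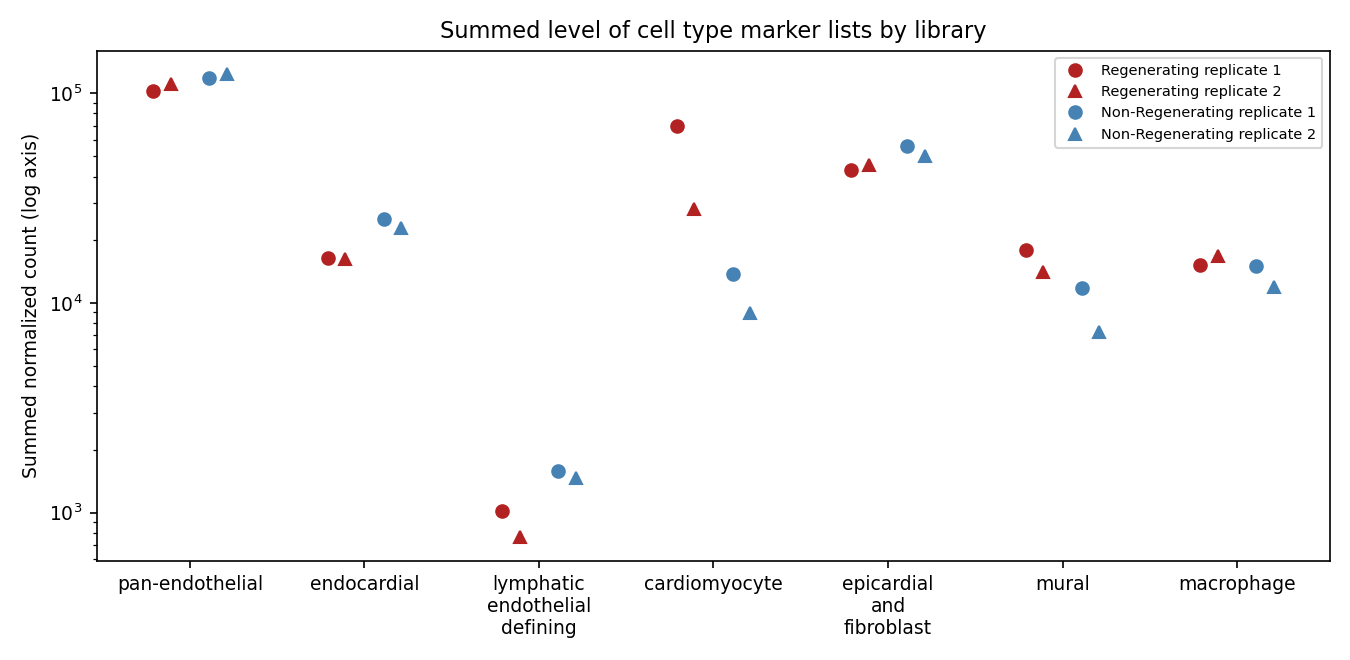
Summed normalized counts (y axis, log scale) of 7 marker lists (columns) in each library, Regenerating in red on the left of each pair and Non-Regenerating in blue on the right, with circles for replicate 1 and triangles for replicate 2. Pan-endothelial sums lie between 102170 and 123366, and the cardiomyocyte sum of Regenerating replicate 1, at 69842, is the highest of its list.

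The 10 members lie on 8 chromosomes, and 32 other genes of the table lie within 100000 bases of a member. Of the 28 of these that were tested, 4 had an unadjusted p under 0.05 (14.3%, against 12.8% of all genes). Apart from BX569787.1, they included 2 family members that sit beside a factor of the same kind. The gene sox32 lies 47006 bases from sox17 on the same strand, and both had higher values in Regenerating. The forkhead gene foxf2a, a gene of brain pericytes and vascular mural cells, lies 24033 bases from foxc1a on the same strand, with 76 and 21 in Regenerating, against 145 and 170 in Non-Regenerating (limma unadjusted p = 0.0316). The paralogous neighbour of foxc1b, foxf2b, overlapped between the groups, with 34 and 48 in Regenerating, against 11 and 119 in Non-Regenerating. The other forkhead relative with an unadjusted p under 0.05 was foxl1, with 134 and 234 in Regenerating, against 23 and 94 in Non-Regenerating. The fourth neighbour with an unadjusted p under 0.05, rgs19, lies 97150 bases from sox18 and had 67 and 86 in Regenerating, against 40 and 28 in Non-Regenerating. Of the nearby genes of other kinds, gmds, next to foxc1b, had 684 and 509 in Regenerating, against 736 and 487 in Non-Regenerating, and rps20, near sox17, had 897 and 953 in Regenerating, against 1000 and 1059 in Non-Regenerating.

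The genes with the most similar pattern to the 3 members of smallest p were found by Euclidean distance between centred log2(value + 1) profiles over the 4 libraries, among genes with a mean of at least 50. For nr2f2 they were si:dkey-120c6.5 (distance 0.104), the polyamine acetyltransferase gene sat1a.1 (0.213) and the translation repressor gene eif4ebp3 (0.244). For nr2f1a they were the semaphorin gene sema3d (0.0742), clip3 (0.141) and the amino acid transporter gene slc16a10 (0.242). The values of sema3d were 98 and 71 in Regenerating, against 219 and 318 in Non-Regenerating. For foxc1a they were si:dkey-65j6.2 (0.146), the exchange factor gene arhgef28a (0.199) and zgc:152774 (0.24). The distances describe 4 libraries and carry no test.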

How the data were processed

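Bulk RNA was sequenced in 4 libraries, 2 per sorted population, each made from about 5 ng of total RNA with a low-input full-length cDNA kit, per the labels' protocols. Trimmomatic 0.39, STAR 2.7.11a, Picard 3.1.1, featureCounts 2.0.4, DESeq2 1.36.0 and build danRer11 are named, with no role, in the submitters' processing notes. The deposited values are normalized counts rounded by the authors to whole numbers, recorded as a score because they are not raw counts, so no count model was run. The worth of 1 read was estimated from the steps of the values at 0.9205 to 0.9935 for Regenerating libraries, against 0.9926 to 1.0844 for Non-Regenerating.

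The 16928 genes with 10 or more normalized counts in 2 or more libraries were fitted as log2(value + 1) with limma 3.58.1 in R 4.3.3 (mean-variance trend, 2 residual and 3.08 prior degrees of freedom, Benjamini-Hochberg adjustment), so folds of low genes are understated. The fit was tested on simulated data. Poisson intervals and floors cover counting error alone, as PCR copies were not told apart by molecular identifiers. The limma intervals of log2 fold changes rest on the spread between libraries. No transcript lengths were used, so "most abundant" refers to normalized counts, which also grow with transcript length. List sums are weighted towards genes with high counts, and ratios between genes are compared only between the groups. The members and lists were chosen with earlier results of these data known. Named genes were the members, cxcr4a and flt1, family relatives at an unadjusted p under 0.05, the 3 smallest p of each pathway list, the 2 most abundant genes of each cell list, and the nearest profiles; other names were picked with their values known. Of the 258 list names, 230 were found by symbol. Alternatives were the replicate block, filters, pseudocounts, scalings, no variance trend and leaving out each library.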

Additional observations from a re-analysis of the deposited data

How the results depend on the processing

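Of the members, nr2f2, nr2f1a, foxc1a, foxc1b, mafba and sox17 kept their direction under every alternative run, with log2 fold changes from -1.79 to -1.44, -1.91 to -1.40, -3.05 to -1.97, -1.67 to -0.52, -0.47 to -0.27 and 1.04 to 2.62. The unadjusted p of mafba was above 0.05 without the trend, when centred on the pan-endothelial list and without any library except Non-Regenerating replicate 1. With 2 numbers per group, the values cannot settle whether shared numbers mean pairing. Deviations of same-numbered libraries had a correlation of 0.339, and those of other-numbered ones its mirror, -0.339, as 2 libraries per group require. A replicate block in limma gave 357 called genes and 3485 genes at an unadjusted p under 0.05. It called 3 members, nr2f2 and foxc1a (adjusted p = 0.0196 each) and sox17 (adjusted p = 0.0362). Without the variance trend 0 genes were called, with 3 members at an unadjusted p under 0.05, of which 0 were higher. Leaving out single libraries gave 0 called genes, 1074 to 2101 genes at an unadjusted p under 0.05, and 0 to 1 members higher at that threshold (0 without Non-Regenerating replicate 1).

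Members near 0 changed sign, which their intervals include; the cause was not tested. Leaving out single libraries gave sox7 -0.10 to 0.11 (-0.07 without Regenerating replicate 2), sox18 -0.19 to 0.028, prox1a -1.21 to 1.56 (-0.14 without Non-Regenerating replicate 2) and nr2f1b -2.66 to 1.26. Centring on the pan-endothelial list gave sox18 0.069. The log2 ratio differences ranged from -0.44 to 0.35 for nr2f1a to nr2f2 (0.17 without Regenerating replicate 2), from -0.88 to 3.17 for nr2f1b to nr2f2 (-0.55 without Regenerating replicate 1), and from -3.61 to 1.23 for nr2f1a to nr2f1b (0.29 without Regenerating replicate 1). The gene nr2f1b fell below the filter in some settings and has no value there.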

Other observations

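Among 22 genes known to act upstream of or with these factors, most were close to equal, with 1 higher and 2 lower in Regenerating at an unadjusted limma p under 0.05 and a median of -0.10. Over all genes tested, 7.62% were higher and 5.19% lower at that threshold. The hematopoietic and endothelial factor gene gata2b was at 0 in both Regenerating libraries, against 14 and 12 in Non-Regenerating. With each 0 set to 3 reads in its library it was 4.53-fold lower, which leaves out the counting error of 14 and 12. The Gata cofactor gene zfpm2b had 392 and 340 in Regenerating, against 721 and 1481 in Non-Regenerating. The T-box gene tbx1, which acts in lymphatic development in mice, had 53 and 148 in Regenerating, against 21 and 10 in Non-Regenerating.

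Blood cell lists were described as counts at the same threshold, at which 7.62% of all genes tested were higher and 5.19% lower. The neutrophil list had 4 of 8 tested genes higher and none lower, with the protease gene adam8a at 3990 and 3464 in Regenerating, against 2576 and 2068 in Non-Regenerating. Its other most abundant gene, srgn, overlapped, with 2197 and 2413 in Regenerating, against 2379 and 2534 in Non-Regenerating. Of its tested genes, 7 lay above 0 and 1 below, with a median log2 fold change of 0.82. The gene cxcr1, picked with its values known, had 319 and 600 in Regenerating, against 11 and 0 in Non-Regenerating. In contrast mpx, which did not pass the filter, had 1 and 3 in Regenerating, against 9 and 4 in Non-Regenerating. The list summed to 7546 to 7695 in Regenerating, against 4890 to 5521 in Non-Regenerating. The lymphoid list had 3 of 5 higher, with the B-cell gene cd79a at 57 and 43 in Regenerating, against 9 and 15 in Non-Regenerating, and its other most abundant gene, ikzf1, which did not pass the threshold, had 53 and 90 in Regenerating, against 39 and 23 in Non-Regenerating. The genes cd79b (50 and 36 in Regenerating) and pax5 (13 and 17) were at 0 in both Non-Regenerating libraries. With each 0 set to 3 reads they were 13.8-fold and 4.82-fold higher in Regenerating, which leaves out the counting error of the Regenerating values. In contrast lck and zap70, which did not pass the filter, were highest in Non-Regenerating replicate 1, at 25 and 30. The erythrocyte and thrombocyte list had 0 of 5 in either direction. Its 2 most abundant genes were thbs1b and f13a1a.1. The first had 779 and 758 in Regenerating, against 954 and 1721 in Non-Regenerating. The second had 5 and 17 in Regenerating, against 802 and 11 in Non-Regenerating. The pan-endothelial list had 2 of 20 tested genes lower, 0 higher and a median of -0.09.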
